A study of Homo sapiens with 9 samples.

Results

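The Krüppel-like factors (KLFs) are transcription factors that bind GC-rich and CACCC-type DNA through zinc fingers at their C-terminus. The 10 members described here are *KLF2*, *KLF3*, *KLF4*, *KLF5*, *KLF6*, *KLF7*, *KLF9*, *KLF10*, *KLF11* and *KLF13*, found by their symbols among the 26364 gene names of the count table. All 10 passed the expression filter in each of the 4 comparisons below. The remaining KLF genes and the related SP genes were kept as a separate list of 16 names.

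The data were RNA-seq counts from A549, a line of human lung adenocarcinoma cells, in 4 groups with 9 libraries in all. The control group held 2 libraries of A549 cells. The *LA* group held 2 libraries of A549 cells in which guides at *LOC388942* and *ALK* had produced the *LOC388942-ALK* (*LA*) fusion. The sgScr group held 3 libraries of *LA* cells with a scramble guide, and the sg*FOS* group 2 libraries of *LA* cells given guides that target *FOS*, an AP-1 subunit gene. The methods describe the fusion cells as strains grown from single cells, and the parent Cas9 cells as free of *ALK* fusions. The sources do not say whether the replicates were separate cultures, so p-values measure the spread between these libraries, which may be technical. The sgScr libraries carried a scramble guide that the *LA* libraries lacked, and the guide and anything else that separated these preparations cannot be told apart.

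KLF proteins share closely related DNA-binding domains and differ in the N-terminal parts that recruit partner proteins. *KLF2*, *KLF4*, *KLF5*, *KLF6* and *KLF7* are mostly known as activators that work with histone acetyltransferases such as EP300, though *KLF4* can also repress. *KLF3* recruits the CtBP co-repressors, and *KLF9*, *KLF10*, *KLF11* and *KLF13* recruit the SIN3A co-repressor complex. Several KLF genes are induced quickly by growth factors, TGF-β, steroid hormones or blood flow, and in lung epithelium *KLF4* and *KLF5* take part in growth and differentiation.

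Total counts per library ranged from 14507228 to 20456341. Replicates differed far beyond sampling noise in 2 groups, with chi-square values per degree of freedom of 125 for the control pair and 58.1 for the *LA* pair, against 1.74 to 2.65 for the pairs of sgScr and sg*FOS* libraries, where noise alone gives about 1. *FOS*, the targeted gene, was at 10.8 and 9.15 CPM in the control libraries, 335 and 92.8 in the *LA* libraries, 200, 196 and 203 in the sgScr libraries and 68.4 and 74.1 in the sg*FOS* libraries. CPM (counts relative to library size) is given after TMM scaling over the 9 libraries. The 6 epithelial markers summed to 10375 to 17821 CPM in control libraries, 5528 to 10377 in *LA*, 4705 to 5017 in sgScr and 5521 to 5684 in sg*FOS* libraries. In sg*FOS* against sgScr, 4 of these 6 were called higher (*KRT8*, *KRT18*, *KRT19* and *CLDN4*) and 0 lower. The shares of all genes were 12.2% and 10.5%. The 6 fibroblast markers summed to 14.0 to 14.5 CPM in sgScr and 18.2 to 19.3 in sg*FOS* libraries, and to at most 26.6 CPM in any library. *COL1A1* and *THY1* were called higher in sg*FOS* against sgScr with edgeR, whereas DESeq2 called 0 of the fibroblast markers. *COL1A2* was at 0 in the control, *LA* and sgScr groups. The 6 leukocyte markers summed to 25.8 to 35.1 CPM in control, *LA* and sgScr libraries and to 51.7 to 52.3 in sg*FOS* libraries, where *CD68* was called higher, with *PTPRC* and *CD3E* at 0 in every library. The 6 endothelial markers summed to at most 1.57 CPM. The part of these differences in the KLF values was not tested. In bulk libraries, fewer cells that use a gene and less RNA of it per cell cannot be told apart.

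RefSeq promoter windows (GRCh38.p14, 250 bases before to 50 bases after a transcription start) were found for 8 of the 10 members, with 13 windows in all, because *KLF5* and *KLF11* had several starts (2 each) and *KLF7* had 4. *KLF3* and *KLF10* had no entry. The capitals below mark matches to 4 motifs, the KLF-type box CACCC, the GC box GGGCGG, the NF-Y box CCAAT and the TATA box TATAAA, each searched on both strands. The windows of *KLF5*, *KLF6* and *KLF13* are shown because these 3 genes were higher in *LA* than in control cells and lower in sg*FOS* than in sgScr cells, and for *KLF5* the outermost start is shown. In *KLF13*, a GC box and a KLF-type box overlap by 1 base and form a single run of capitals.
KLF5, chr13:73054726-73055025, plus strand: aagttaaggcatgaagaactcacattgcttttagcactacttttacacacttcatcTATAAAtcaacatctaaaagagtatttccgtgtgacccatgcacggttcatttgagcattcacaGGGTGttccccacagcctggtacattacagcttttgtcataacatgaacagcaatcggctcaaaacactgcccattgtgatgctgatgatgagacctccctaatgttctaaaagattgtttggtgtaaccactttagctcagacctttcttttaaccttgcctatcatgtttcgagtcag
KLF6, chr10:3785160-3785459, minus strand: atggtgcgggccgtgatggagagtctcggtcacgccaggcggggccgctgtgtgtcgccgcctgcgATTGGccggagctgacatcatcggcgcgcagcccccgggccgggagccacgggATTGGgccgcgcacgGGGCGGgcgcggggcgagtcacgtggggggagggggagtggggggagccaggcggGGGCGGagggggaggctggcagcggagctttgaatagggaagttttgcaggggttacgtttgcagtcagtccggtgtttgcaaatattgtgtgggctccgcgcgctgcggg
KLF13, chr15:31326585-31326884, plus strand: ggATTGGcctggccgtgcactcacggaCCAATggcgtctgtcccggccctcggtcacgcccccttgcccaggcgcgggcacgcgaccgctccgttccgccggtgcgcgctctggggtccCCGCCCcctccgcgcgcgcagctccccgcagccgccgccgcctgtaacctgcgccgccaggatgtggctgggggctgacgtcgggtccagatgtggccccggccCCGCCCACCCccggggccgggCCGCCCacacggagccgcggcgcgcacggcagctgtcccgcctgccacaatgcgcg

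The 3 windows differed in composition. The *KLF6* and *KLF13* windows were 70.7% and 78.3% G or C, with 2 and 3 GC boxes and 2 NF-Y boxes each. The outermost *KLF5* window was 40.7% G or C and held a TATA box at bases -194 to -189 from the start, with no GC box, whereas the inner *KLF5* start lay in a window of 71.3% G or C with 2 GC boxes. Of the 13 windows, 8 held a GC box (61.5%, against 45% of 35116 RefSeq windows) and 7 held a KLF-type box (53.8%, against 59.9%). The NF-Y box was in 6 windows (46.2%, against 34.6%) and the TATA box in 1 (7.69%, against 11.5%). The AP-1 letters TGANTCA, the site that FOS and JUN proteins bind together, were in none of the 13 windows and in 7.71% of all windows. The cyclic AMP response element TGACGTCA was in 1 window, the inner start of *KLF11* (7.69%, against 1.85%), where it overlapped a KLF-type box. The CArG box, bound by SRF, was in 1 window, the outermost start of *KLF7* (7.69%, against 1.29%). These are matches of letters within the windows and say nothing about sites further away.

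**Figure D1:**
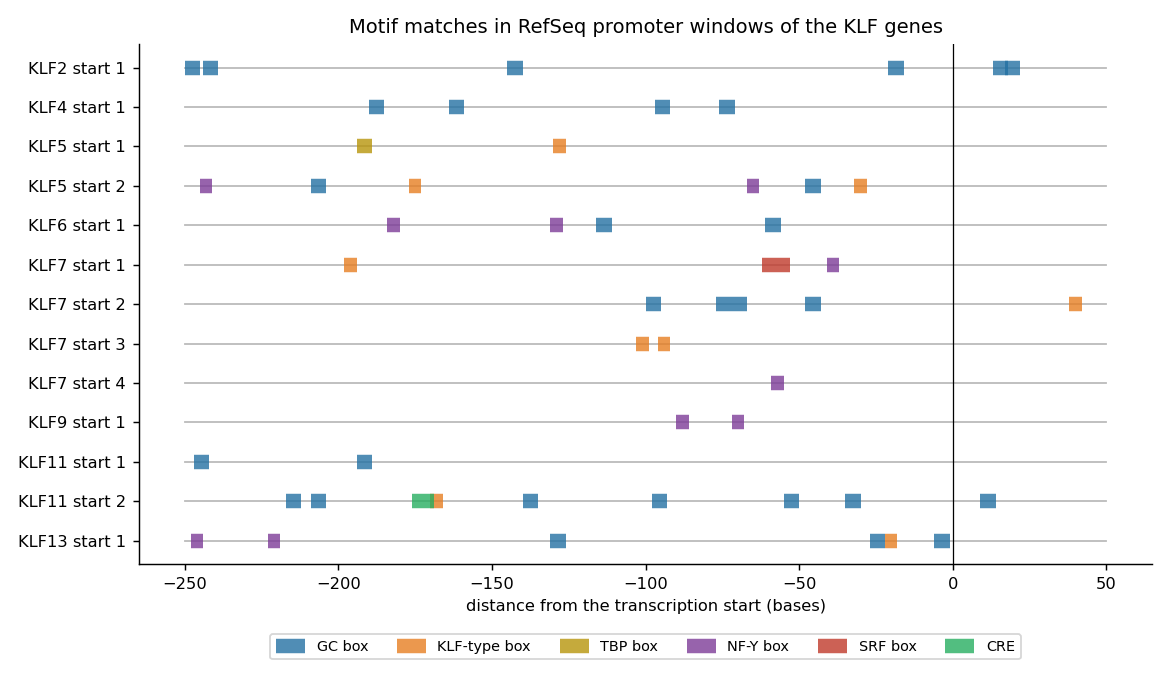
Motif matches (coloured bars) in the 13 RefSeq promoter windows of 8 KLF genes, by distance in bases from the transcription start (vertical line at 0); starts of a gene are numbered from the outermost inwards. GC boxes recur in the *KLF2*, *KLF4* and *KLF11* windows, and no window holds an AP-1 match.

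The members differed widely in level. Levels are given per kilobase of transcript, to compare genes within a group. Between groups, fold changes against control followed transcript length over all genes (Spearman correlation 0.577 for *LA* and 0.593 for sgScr). Division by length does not remove that trend. Mean levels in control cells ran from 2.56 CPM per kb for *KLF7* to 20.8 for *KLF5*, with *KLF10* next at 20.3. In *LA* cells they ran from 2.96 for *KLF11* to 57.2 for *KLF5*. In sgScr cells *KLF10* stood first at 49.2 CPM per kb, followed by *KLF6* at 32.0 and *KLF13* at 31.6, and *KLF9* stood last at 2.62. The top and bottom of the order were the same in sg*FOS* cells, with *KLF10* at 45.6 and *KLF9* at 2.20. The neighbours *KLF5* and *KLF10* in control cells and *KLF6* and *KLF13* in sgScr cells were closer than the spread of their libraries. The order of the *LA* means did not hold in single libraries, with *KLF10* (73.3) above *KLF5* (44.1) and *KLF4* (3.31) last in replicate 1, and *KLF5* (70.4) first and *KLF9* (1.18) last in replicate 2. In control replicate 1 *KLF10* was first and *KLF7* last, and in replicate 2 *KLF5* was first and *KLF11* last. Summed over the 10 members, the CPM was 259 and 389 in the control libraries, 876 and 785 in *LA*, 754, 746 and 748 in sgScr and 651 and 669 in sg*FOS*. The 4 groups did not overlap in this sum, with control lowest and *LA* highest.

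**Figure D2:**
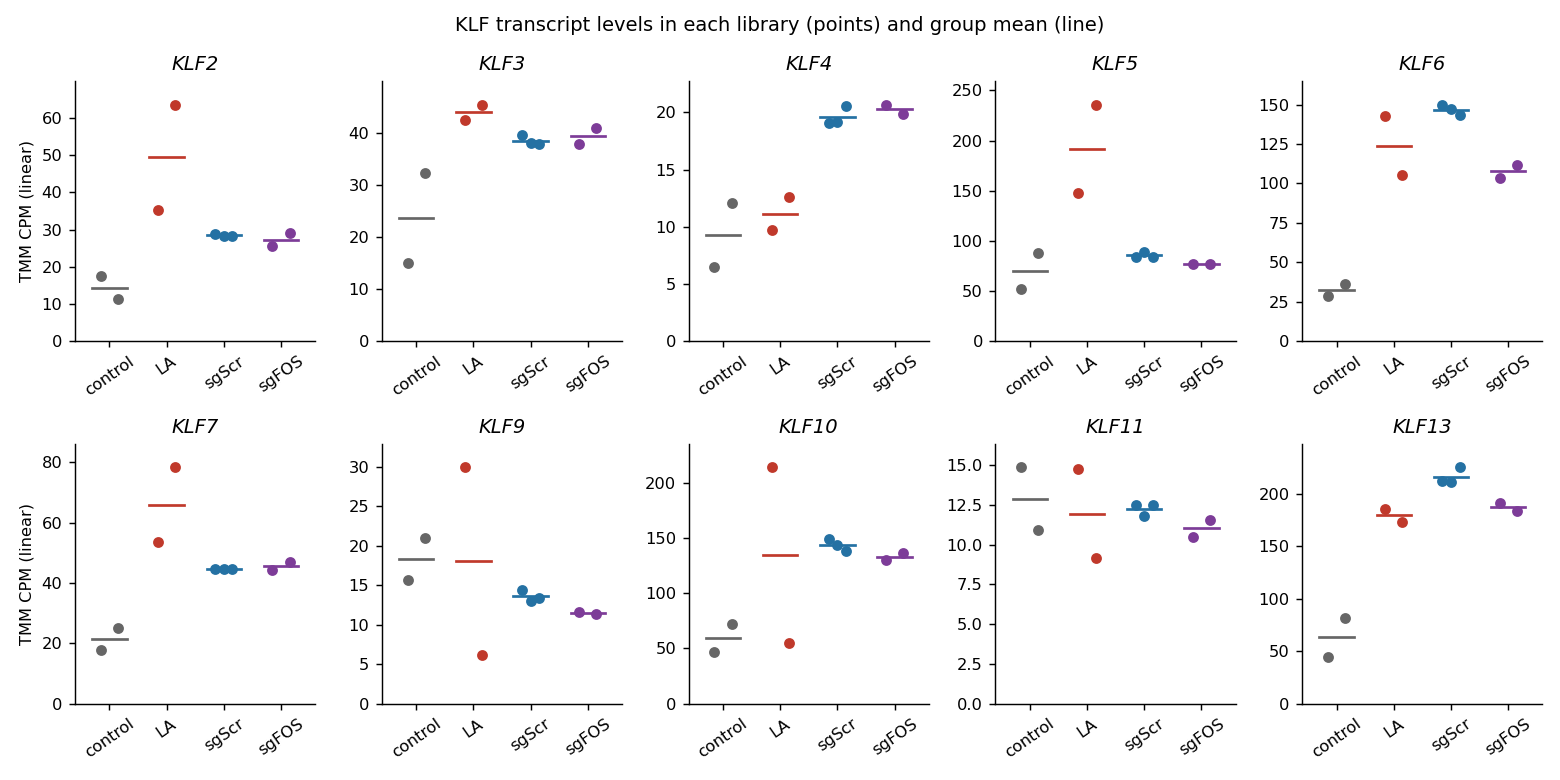
TMM-scaled CPM of each KLF gene (linear axis from 0, a scale for each panel) in the 2 control, 2 *LA*, 3 sgScr and 2 sg*FOS* libraries; points are libraries and lines group means. *KLF2*, *KLF3*, *KLF6*, *KLF7* and *KLF13* sit above both control libraries in all 7 fusion libraries, and *KLF9* and *KLF10* are far apart between the 2 *LA* libraries.

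The comparison of *LA* with control cells shows which genes differ between these cells. The *LA* cells had also received guides and been grown from single cells, while the labels name the control cells only as A549. These steps and the fusion cannot be told apart here. Of the 10 members, 5 were higher in *LA* cells at an adjusted p under 0.05 (edgeR's quasi-likelihood test, Benjamini-Hochberg adjustment over the 14425 genes tested), where 9.57% of all genes tested were called higher. They were *KLF6*, *KLF2*, *KLF7*, *KLF13* and *KLF5*, of which 4 belong to the activator group. No member was called lower, where 9.94% of all genes were, and none was lower at an unadjusted p under 0.05 with edgeR or with DESeq2. The libraries of the 2 groups did not overlap for 6 members, all higher in *LA* cells, against 33.8% of all genes in that direction, and for 0 members in the other direction, against 30% of all genes. The median log2 fold change was 1.30 over the 10 members and 0.044 over all genes tested.

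*KLF6*, a zinc-finger activator with growth-restraining roles in many epithelia, was at 28.4 and 35.9 CPM in the control libraries and at 143 and 106 CPM in the *LA* libraries, so the groups were well apart. Its log2 fold change was 1.92 (SE 0.41, adjusted p = 0.00306 with edgeR), a 3.79-fold difference. This was the largest value of the 10 in this fit, whereas *KLF2* was above *KLF6* with the length and GC correction (2.06 and 1.44), without control replicate 1 (2.05 and 1.72) and without *LA* replicate 1 (2.10 and 1.65). *KLF2*, a regulator of endothelial and lymphocyte quiescence, was at 17.4 and 11.3 CPM in control and 35.3 and 63.6 CPM in *LA* libraries. Both *LA* libraries were above both controls, with a log2 fold change of 1.76 (SE 0.45, adjusted p = 0.00854 with edgeR). *KLF7*, which is known from neuronal differentiation, was at 17.6 and 25.2 CPM in control and 53.7 and 78.3 CPM in *LA* libraries. The groups did not overlap and the log2 fold change was 1.59 (SE 0.42, adjusted p = 0.0114 with edgeR).

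*KLF5*, a driver of proliferation in basal and crypt epithelium, was at 51.8 and 87.4 CPM in control and 148 and 236 CPM in *LA* libraries. Its log2 fold change was 1.43 (SE 0.42, adjusted p = 0.0209 with edgeR), with every *LA* value above every control value. *KLF13*, a SIN3A-binding factor known as an activator of the chemokine gene *CCL5* in T cells, was at 44.9 and 81.3 CPM in control and 186 and 173 CPM in *LA* libraries. The 2 *LA* values lay close together and far above control, with a log2 fold change of 1.48 (SE 0.42, adjusted p = 0.0164 with edgeR).

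*KLF10*, a TGF-β-inducible early gene product, was not called. It was at 46.5 and 71.9 CPM in control and at 214 and 55.2 CPM in *LA* libraries, so the first *LA* library was the highest of the 9 and the second lay within the control range. Its log2 fold change was 1.17 (SE 0.49, adjusted p = 0.0951 with edgeR). *KLF3*, a repressor that acts through CtBP, was at 15.1 and 32.2 CPM in control and 42.4 and 45.4 CPM in *LA* libraries, without overlap but with a log2 fold change of 0.86 (SE 0.44, adjusted p = 0.171 with edgeR).

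The remaining 3 members overlapped between the groups. *KLF4*, a differentiation and reprogramming factor, was at 6.46 and 12.1 CPM in control and 9.71 and 12.6 CPM in *LA* libraries. *KLF9*, a glucocorticoid-responsive repressor, was at 15.7 and 21.0 CPM in control libraries, between its *LA* values of 29.9 and 6.15 CPM. *KLF11*, the close relative of *KLF10*, was at 14.9 and 10.9 CPM in control and 14.7 and 9.17 CPM in *LA* libraries. Their log2 fold changes were 0.23 (SE 0.49), -0.040 (SE 0.54) and -0.13 (SE 0.47). The 2 *LA* libraries differed at least 3-fold for *KLF9*, at 4.86-fold, and *KLF10*, at 3.87-fold, both higher in replicate 1, as 5.34% of 14849 genes did. *FOS* was 3.61-fold higher in the same library. No member differed 3-fold between the 2 control libraries, where 7.70% of genes did.

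The calls in this comparison needed both *LA* libraries. Some also needed control replicate 1 or did not hold under a joint correction for length and GC content. Leaving out an *LA* library left 1 in that group and lowered the number of calls over all genes, so fold changes are given. Without *LA* replicate 1 and without *LA* replicate 2, log2 fold changes were 1.65 and 2.15 for *KLF6* and 2.10 and 1.305 for *KLF2*. They were 1.81 and 1.32 for *KLF7*, 1.39 and 1.56 for *KLF13* and 1.70 and 1.08 for *KLF5*. Without control replicate 1, these 5 ran from 1.06 for *KLF5* to 2.05 for *KLF2*. Over all genes, fold changes had a Spearman correlation of 0.577 with transcript length and of -0.309 with GC content. With both corrected together, *KLF2* (2.06), *KLF6* (1.44) and *KLF5* (1.28) were still called, while *KLF7*, whose transcript is 8365 bp, went to 0.57 and *KLF13*, at 6845 bp, to 0.83, neither called. Over the 13 alternatives the adjusted p ranged from 5.52e-05 to 0.145 for *KLF6*, 0.00166 to 0.310 for *KLF2*, 0.000904 to 0.302 for *KLF7*, 0.00158 to 0.255 for *KLF13* and 0.00287 to 0.437 for *KLF5*.

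The sgScr cells, which also carry the fusion, were set against the same 2 control libraries, so the values here and above share their controls. In this comparison 6 members were called higher, against 19.8% of all 14482 genes tested, and 0 lower, against 21.7%, with none lower at an unadjusted p under 0.05 with edgeR or DESeq2. The median log2 fold change was 1.04 over the members and 0.019 over all genes. *KLF6* was at 150, 147 and 143 CPM in sgScr libraries, with a log2 fold change of 2.20 (SE 0.18, adjusted p = 0.00412 with edgeR). *KLF13* was at 212, 211 and 225 CPM, with a log2 fold change of 1.78 (SE 0.29, adjusted p = 0.00879 with edgeR). *KLF10* was at 149, 144 and 138 CPM, with a log2 fold change of 1.28 (SE 0.23, adjusted p = 0.0104 with edgeR). These 3 genes were above both control libraries in every sgScr library.

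*KLF4* at 19.1, 19.2 and 20.6 CPM, *KLF7* at 44.8, 44.8 and 44.6 CPM and *KLF2* at 28.8, 28.2 and 28.4 CPM were called too. Their log2 fold changes were 1.08 (SE 0.30), 1.07 (SE 0.21) and 1.00 (SE 0.21). *KLF5* was at 84.0, 88.4 and 83.9 CPM, overlapping the control values, and its log2 fold change was 0.30 (SE 0.25, adjusted p = 0.360 with edgeR). *KLF3* was at 39.6, 38.0 and 37.7 CPM, above both controls, with 0.70 (SE 0.33, adjusted p = 0.133 with edgeR). *KLF9* at 14.4, 13.0 and 13.4 CPM lay below both controls with -0.42 (SE 0.19, adjusted p = 0.123 with edgeR), and *KLF11* at 12.5, 11.8 and 12.5 CPM overlapped them.

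Leaving out sgScr replicate 1 left only *KLF6* called, and leaving out sgScr replicate 2 or replicate 3 left none. Each such fit had 4 libraries. Over all genes, the fit without replicate 1 called 117 higher and 13 lower. The fits without replicate 2 and without replicate 3 each called 3 higher and 0 lower. The loss of calls was therefore not particular to the KLF genes. Over the alternatives the adjusted p went up to 0.0541 for *KLF6*, 0.0568 for *KLF13* and 0.0599 for *KLF10*. Both trends were present here as well (Spearman correlation 0.593 with length and -0.383 with GC content), and with the length and GC correction *KLF7* (0.080) lost its call while *KLF9* (-1.02) was called lower. *KLF9* was also called lower without control replicate 1.

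**Figure D3:**
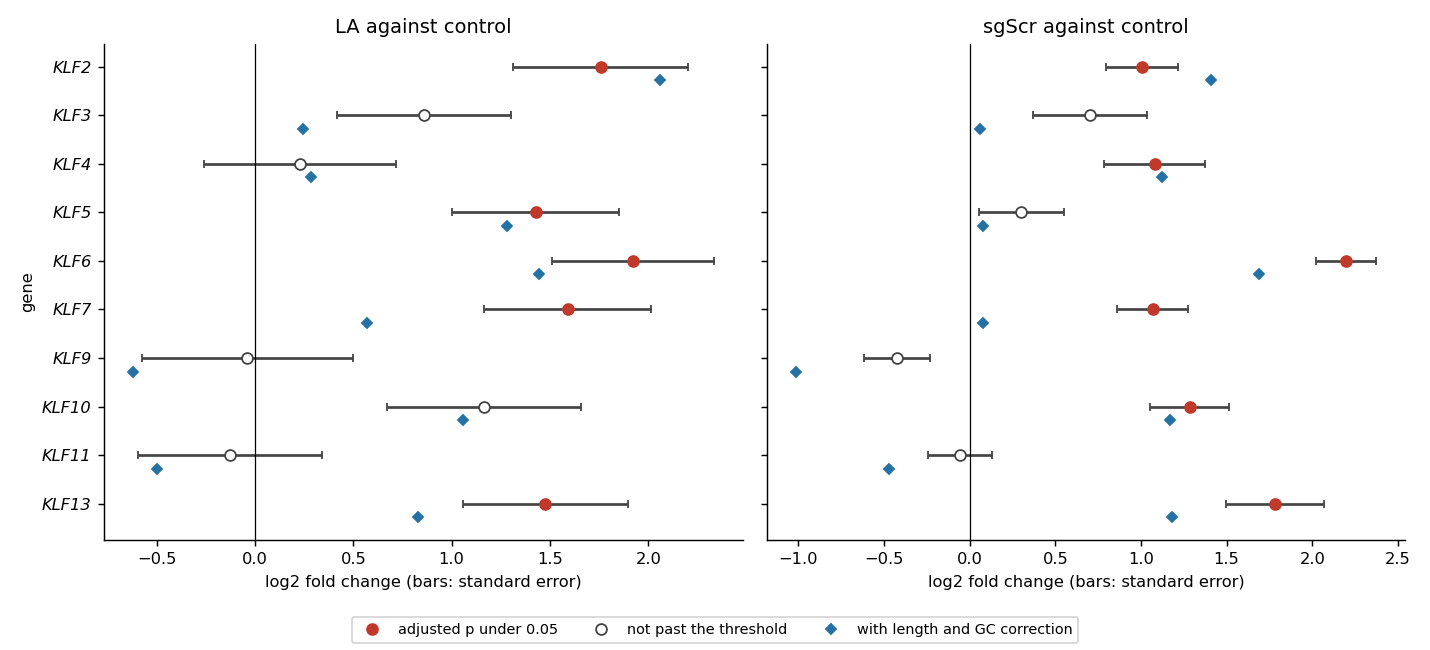
Log2 fold changes (points, bars standard error) of the 10 KLF genes for *LA* against control and sgScr against control, which share the 2 control libraries; filled points have an adjusted p under 0.05 in edgeR's test and diamonds are values corrected for the length and GC content of transcripts. *KLF6* stays at 1.44 and 1.69 with the correction, and *KLF7* drops to 0.57 and 0.080.

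The sgScr and *LA* libraries both carry the fusion, and their comparison shows how far apart the fusion groups were without any targeting of *FOS*. *KLF4* was higher in sgScr libraries (log2 fold change 0.79, SE 0.15, adjusted p = 0.0183 with edgeR), the only member called in that direction, against 10.6% of all 14521 genes tested. *KLF5* (log2 fold change -1.19, SE 0.19, adjusted p = 0.0115 with edgeR) and *KLF7* (-0.58, SE 0.16, adjusted p = 0.0485 with edgeR) were lower, 2 members against 12.3% of all genes. With the length and GC correction *KLF7* was not called (-0.50) and *KLF2* was (-0.68), and DESeq2 called *KLF2* (-0.80) beside *KLF5* and *KLF7*. *KLF2* had a log2 fold change of -0.82 without the correction (adjusted p = 0.0529 with edgeR, 2.92e-16 to 0.175 over the alternatives). *KLF5* had been at 148 and 236 CPM in *LA* libraries and was at 83.9 to 88.4 CPM in sgScr libraries, close to the 87.4 CPM of control replicate 2. *KLF6* and *KLF13* were higher in every sgScr than in every *LA* library, but with log2 fold changes of 0.22 (adjusted p = 0.272 with edgeR) and 0.25 (adjusted p = 0.0802 with edgeR). The median was -0.097 over the members and -0.016 over all genes. The counts of members called turned on single libraries, as did the counts over all genes. Without any one of the sgScr replicates 0 members were called in both directions. Those fits called 171 to 222 of all genes higher and 218 to 310 lower. Leaving out an *LA* replicate instead left 1 library in that group. *KLF10* changed sign between the fits of this kind, at 1.38 without *LA* replicate 1 and -0.59 without *LA* replicate 2.

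The comparison of sg*FOS* with sgScr cells asks what targeting *FOS* changes in cells with the fusion. *FOS* itself was lower by a log2 fold change of -1.48 (SE 0.044, adjusted p = 2.00e-25 with edgeR). Of the 10 members, 3 were called lower, *KLF6*, *KLF13* and *KLF5*, against 10.5% of all 14196 genes tested, and 0 were called higher, against 12.2%, with none higher at an unadjusted p under 0.05 with edgeR or DESeq2. The groups did not overlap for 6 members in the lower direction, against 24.5% of all genes, and for 0 in the higher direction, against 24%. The median log2 fold change was -0.13 over the members and -0.0015 over all genes. The shifts were small, with each member's fold between 0.735 and 1.04.

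*KLF6* was at 103 and 112 CPM in sg*FOS* libraries, below the lowest sgScr value of 143 CPM. Its log2 fold change was -0.44 (SE 0.042, adjusted p = 1.41e-10 with edgeR), which ranked it 13574 of 14196 genes from the highest value down. Its sg*FOS* level was still above the 35.9 CPM of the higher control library. *KLF13* was at 191 and 184 CPM, below all 3 sgScr libraries, with a log2 fold change of -0.20 (SE 0.039, adjusted p = 0.000132 with edgeR). *KLF5* was at 76.6 and 77.1 CPM, also below all 3, with -0.15 (SE 0.046, adjusted p = 0.0159 with edgeR).

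Another 3 members lay below sgScr in both sg*FOS* libraries without a call. *KLF10* was at 130 and 136 CPM (log2 fold change -0.11, SE 0.041, adjusted p = 0.0556 with edgeR). *KLF9* was at 11.6 and 11.3 CPM (-0.25, SE 0.11, adjusted p = 0.111 with edgeR) and *KLF11* at 10.5 and 11.6 CPM (-0.15, SE 0.12, adjusted p = 0.400 with edgeR). The other 4 members overlapped between the groups. *KLF2* was at 25.5 and 29.1 CPM, *KLF3* at 37.9 and 40.9 CPM, *KLF4* at 20.7 and 19.8 CPM and *KLF7* at 44.1 and 46.9 CPM, with log2 fold changes from -0.056 to 0.054.

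Fold changes had a Spearman correlation of -0.0095 with transcript length and of 0.261 with GC content over all genes here, and with the length and GC correction the same 3 members were called. *KLF6* and *KLF13* were called in 12 of 13 alternatives and *KLF5* in 8 of 13, with adjusted p from 4.99e-23, 1.07e-07 and 0.00671 up to 1.00 for each. The exception for *KLF6* and *KLF13* was the fit of all 9 libraries, where the spread of the control and *LA* libraries entered the estimate. That fit called 0 genes higher and 0 lower over all genes, and *FOS* itself was not called. It therefore cannot tell the members from other genes. Of the 10 members, *KLF6* alone was lower there at an unadjusted p under 0.05. The study's own threshold on the size of a change, an absolute log2 fold change over 0.5, was passed by none of the 10 members.

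**Figure D4:**
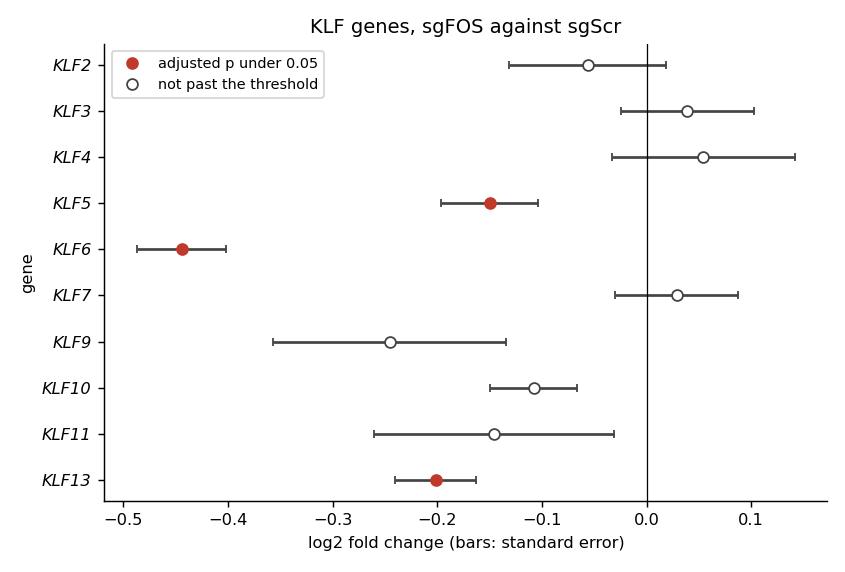
Log2 fold changes (points, bars standard error) of the 10 KLF genes for sg*FOS* against sgScr, 2 against 3 libraries; filled points have an adjusted p under 0.05 in edgeR's test. *KLF6* lies lowest at -0.44, apart from *KLF13* at -0.20 and *KLF5* at -0.15.

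The other members of the family and of the related SP family numbered 16, of which 8 passed the expression filter. *KLF1*, *KLF14*, *KLF15* and *SP8* had at most 2 counts in any library. In *LA* against control none of the 8 was called by edgeR, against 9.57% of all genes higher and 9.94% lower. At an unadjusted p under 0.05, 2 were higher and 1 lower, and DESeq2 called 1 higher. The median log2 fold change was 0.67, against 0.044 over all genes. In sgScr against control, where 19.8% of all genes were called higher and 21.7% lower, 2 were called higher. They were *KLF12*, a CtBP-binding repressor (1.36), and *SP1*, the broadly expressed GC-box factor (1.35). None was called lower, also with DESeq2, and none was lower at an unadjusted p under 0.05. With the length and GC correction *KLF12* was at 0.32, not called, and *SP1* at 0.41. In sg*FOS* against sgScr *SP6*, an epithelial SP factor, rose (1.16, SE 0.19, adjusted p = 1.55e-05 with edgeR), as did *KLF16* (0.18, and 0.067 with the length and GC correction, not called), while *SP4* fell (-0.49). The shares over all genes were 12.2% higher and 10.5% lower. In sgScr against *LA*, *SP9* (1.23) and *SP1* (0.46) were called higher, against 10.6% of all genes. None of the 8 was called lower by edgeR, against 12.3%, and none was lower with DESeq2 or at an unadjusted p under 0.05.

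Of 20 co-regulators of KLF proteins, all tested, 2 were higher and 0 lower in *LA* against control, the acetyltransferase genes *EP300* (2.19) and *CREBBP* (1.48), with a list median of 0.36 against 0.044 over all genes. The share of all genes called was 9.57% higher and 9.94% lower, so that 2 of 20 was near the background. At an unadjusted p under 0.05, 1 was lower with edgeR, and DESeq2 called 1 lower. With the length and GC correction *EP300* (1.12) stayed called and *CREBBP* (0.38) did not. Set against control, sgScr cells had 7 higher and 1 lower, led by *EP300* (1.88), the ubiquitin ligase gene *SMURF2* (1.58) and *CREBBP* (1.09), where 19.8% and 21.7% of all genes were called higher and lower. With the length and GC correction *EP300* was 0.88 and *SMURF2* 0.89, both called, and *CREBBP* was 0.047 and not called. In sg*FOS* against sgScr 2 were higher and 2 lower, against 12.2% and 10.5% of all genes, led by *SMURF2* (0.26), *SMURF1* (0.18) and the histone methyltransferase gene *SUV39H1* (-0.18), and the median was -0.011. The histone deacetylase gene *HDAC1* (0.68) was the 1 co-regulator of 20 called higher in sgScr against *LA*, against 10.6% of all genes. With edgeR 0 were called lower, against 12.3% of all genes, and DESeq2 called 0 lower too. At an unadjusted p under 0.05, 2 were lower.

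Of 22 genes that act upstream of KLF transcription, 21 were tested. In *LA* against control 5 were higher and 0 lower, led by the immediate-early genes *FOSB* (7.10, SE 0.87), *EGR1* (4.61, SE 0.54) and *FOS* (4.41, SE 0.54), with a list median of 0.57 against 0.044 over all genes, of which 9.57% were called higher and 9.94% lower. At an unadjusted p under 0.05, 1 was lower with edgeR, and DESeq2 called 0 lower. *EGR1* was at 4.78 and 4.31 CPM in control libraries and at 171 and 54.3 CPM in *LA* libraries. The sgScr cells had 12 higher and 2 lower than control, against 19.8% and 21.7% of all genes, with the same 3 genes in front (*FOSB* 6.72, *EGR1* 5.77 and *FOS* 4.34). In sg*FOS* against sgScr 3 were higher and 5 lower, against 12.2% and 10.5% of all genes, with *FOSB* at -1.54, *FOS* at -1.48 and the AP-1 gene *FOSL2* at 0.47, and the median was -0.014. In sgScr against *LA*, 4 were higher and 4 lower, against 10.6% and 12.3% of all genes, led by *JUN* (1.09), *JUND* (-0.88) and *SMAD2* (-0.69).

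Of 28 genes known as KLF targets, 24 were tested in *LA* against control, with 5 higher and 2 lower, against 9.57% and 9.94% of all genes, and a median of 0.088 against 0.044. The largest were the E-cadherin gene *CDH1* (2.28), the stress factor gene *ATF3* (2.15) and the thrombomodulin gene *THBD* (2.10), a well-known *KLF2* target. In sgScr against control 7 were higher and 6 lower, among them *CDH1* (1.79) and the cell-cycle inhibitor gene *CDKN1C* (-1.56), against 19.8% and 21.7% of all genes. With the length and GC correction *CDKN1C* was -0.61 and not called. In sg*FOS* against sgScr 14 of 22 tested were higher and 4 lower, against 12.2% and 10.5% of all genes, with a median of 0.20 against -0.0015. *CDKN1A*, the p21 gene and a *KLF4* and *KLF6* target, was at 118, 111 and 119 CPM in sgScr and 275 and 264 CPM in sg*FOS* libraries, a log2 fold change of 1.22 (SE 0.038). *THBD* was higher too (0.90). In sgScr against *LA* 0 were called higher by edgeR, against 10.6% of all genes, with 2 at an unadjusted p under 0.05 and 2 called by DESeq2. In the other direction 6 were lower, against 12.3% of all genes, led by *THBD* (-1.68), *ATF3* (-1.01) and *TGFBR1* (-0.63).

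By mean CPM over the 9 libraries, *KLF13* (168), *KLF10* (120) and *KLF6* (108) were taken for a look at genes of like pattern, with *KLF5* close behind at 104, and this CPM does not order genes by level. Over the 9 libraries, the genes whose log2 CPM followed *KLF13* most closely were *ATP11B*, *TM9SF3* and *CPD*, with Pearson r of 0.997, 0.996 and 0.996. Those for *KLF10* were *GPD1L*, *GALNT13* and *SPATA5*, with r of 0.985, 0.981 and 0.975. Those for *KLF6* were *SLC23A2*, *FAM178A* and *WDFY2*, with r of 0.996, 0.994 and 0.993. The 9 libraries share the group structure and the length trend, and these values are descriptions.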

How the data were processed

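RNA-seq of 9 libraries in 4 groups was analysed. Per the labels and methods, stranded mRNA libraries were sequenced with paired ends and aligned to hg19 with STAR 2.7.10b, and the authors used DESeq2 1.26.0. The deposited values are raw read counts for each gene. The counting program, annotation and strand setting are not given in the sources used here, so reads of *KLF3* and its antisense gene *KLF3-AS1*, and of *KLF7* and *MIR2355* inside it, may not be separated.

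Counts were tested with edgeR 4.0.16 in R 4.3.3 (TMM, filterByExpr, quasi-likelihood test, two-sided) on the libraries of each comparison, with Benjamini-Hochberg adjustment over all genes tested and a threshold of 0.05. Standard errors are the absolute log2 fold change divided by the square root of F. CPM was TMM-scaled over the 9 libraries. Transcript lengths and GC content came from GENCODE on GRCh37 (22494 names matched by symbol and 1332 by an older symbol) and entered a loess offset with a span of 0.5. Alternatives were DESeq2 1.42.0, other scalings and filters, all 9 libraries, a replicate block, the length and GC correction, the study's threshold and leaving out each library. The 28 date-like names stayed in the library sizes. Totals of 14507228 to 20456341 counts limit precision through counting error only. All columns were used. The procedures were tested on simulated data.

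The members and gene lists were chosen with earlier results of these data known. Named genes are the members, *FOS*, at most the 3 largest changes among called genes of a list in a comparison, and the 3 genes most like each of the 3 highest members. Not every gene this rule selects is reported here. Genes with almost no counts and the called markers were named after their counts were seen.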

Additional observations from a re-analysis of the deposited data

How the results depend on the processing

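In *LA* against control, 5 members were called higher. The count was 3 with the replicate block and 3 with the length and GC correction. It also moved when a library was left out, which left 1 in that group and moved the calls over all genes too. Same-numbered *LA* and control libraries deviated in opposite directions (correlation -0.202). With 2 libraries in each group this is a single value, which gives no sign of pairing by number but cannot exclude it. A crossed pairing, chosen after seeing the data, called 5 members higher. In the other comparisons the correlations ran from -0.117 to 0.062. In sg*FOS* against sgScr, 3 were lower, 0 with all 9 libraries, where 0 of all genes were called, and 0 at the study's threshold. In sgScr against *LA*, 1 was higher and 2 were lower. The numbers higher were 0 with all 9 libraries and 0 with the replicate block, and the numbers lower were 1 with a mean of 50 counts, 1 with all 9 libraries and 1 with the replicate block. Without any one sgScr library both numbers were 0, with 171 to 222 higher and 218 to 310 lower over all genes. Without either *LA* library both numbers rose, as did the calls over all genes, but this left 1 library in that group. In sgScr against control, 6 were higher and 0 lower, with 1 lower under the length and GC correction, 0 to 8 higher and 0 to 1 lower when a library was left out.

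Signs reversed for members with no call in the main edgeR fit of that comparison. In *LA* against control, library size alone gave *KLF9* 0.22 and *KLF11* 0.18. Leaving out a library gave -0.19 to 0.70 for *KLF4*, -1.64 to 0.71 for *KLF9*, -0.16 to 1.85 for *KLF10* and -0.54 to 0.20 for *KLF11*. In sg*FOS* against sgScr, the correction gave *KLF4* -0.0042, and leaving out a library gave -0.16 to 0.033 for *KLF2*, -0.018 to 0.090 for *KLF3* and -0.017 to 0.070 for *KLF7*. In sgScr against *LA*, *KLF11* was -0.031 with library size alone and -0.00060 with a mean of 50 counts, and leaving out a library gave -1.15 to 1.14 for *KLF9*, -0.59 to 1.38 for *KLF10* and -0.28 to 0.42 for *KLF11*. In sgScr against control, library size alone gave *KLF11* 0.14, and leaving out a library gave -0.032 to 0.73 for *KLF5* and -0.27 to 0.17 for *KLF11*.

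Library size alone moved the median of all genes in *LA* against control from 0.044 to 0.328 and the calls from 1380 higher and 1434 lower to 1601 and 682, with the same 5 members called. In sgScr against control it moved the median from 0.019 to 0.196. With 2 libraries in most groups, leaving out 1 assumes that the lone library varies like the others.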
